A study of Sus scrofa with 24 samples.

Results

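Cholesterol and lipid synthesis genes were followed in cultured pig cells from the medial meniscus, a fibrocartilage cushion in the knee, through cyclic stretch and IL-1. The 34 genes listed cover the path that builds cholesterol, its control, its transport and fatty acid synthesis, and a gene was a member when the count table gave its symbol and at least 1 library held 10 reads or more. That left 30 members among 13653 genes tested of 25880 in the table. LSS, the cyclase that closes the sterol rings, had a row with 0 reads in every library, and the symbols IDI1, INSIG2 and MYLIP did not appear in the count table. RNA was sequenced in 24 libraries, 3 in each of 8 groups, with 25377054 to 35284474 reads counted per library.

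Cells of the inner or outer zone (inner and outer cells) were stretched with IL-1, given IL-1 alone, stretched alone, or left untreated. Stretch was 5% strain at 0.5 Hz for 4 h on flexible, collagen-coated plates, begun about 40 h after seeding, and IL-1α was added at 0.1 ng/mL when stretch began. RNA was taken directly after stretch, so every change is that of a few hours. All cells came from skeletally mature female pigs, and cells of at least 3 menisci were pooled and expanded for 1 passage before seeding. Nothing states that the 3 libraries of a group came from separate pools, and p-values measure only the spread between these libraries, which may be technical. Both zones of a treatment carry the same P number in the sample titles, so treatment and whatever that number marks cannot be told apart.

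Cells make cholesterol from acetyl-CoA through mevalonate, squalene and lanosterol. Its supply is sensed in the endoplasmic reticulum, where SCAP escorts the SREBP transcription factors (genes SREBF2 and SREBF1) toward cleavage when sterols are low, and INSIG proteins hold SCAP back when sterols are high. SREBF2 is known mainly for sterol synthesis and uptake, SREBF1 for fatty acid synthesis, while the nuclear receptors of the LXR family sense oxysterols and drive export through ABCA1 and ABCG1. These roles were worked out largely in rodents and human cells.

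Markers of meniscus fibrochondrocytes summed to 77800 to 102000 CPM (the count scaled to library size) in every library. COL1A1 and COL1A2 were highest, at up to 1986257 and 1092995 reads a library, and BGN and FMOD reached 116653 and 74074. COL2A1 and SOX9 reached only 1356 and 715 reads, and the symbols COL6A1 and PRG4 did not appear in the count table. Adipocytes, the lipid-storing cells, left almost no trace: their summed markers reached 0 to 0.692 CPM, and ADIPOQ, PLIN1, LEP and CIDEC had under 10 reads in every library. Endothelial markers summed to 5.81 to 10.2 CPM, with PECAM1 at up to 329 reads a library, EMCN and TIE1 at up to 53 and 34, and CDH5, VWF and KDR under 10. Leukocyte markers summed to 18.7 to 43.9 CPM, almost all of it CD14, at up to 1228 reads, with LYZ, CSF1R and CD68 at up to 77, 41 and 17 reads, PTPRC and CD3E at no more than 1 and CD163 at 0. Their sum was 25.9 to 30.9 CPM in inner IL-1 cells against 18.7 to 19.1 CPM in inner untreated cells, and 40.3 to 43.9 CPM in outer IL-1 cells against 22 to 24.8 CPM in outer untreated cells, where CD14 was the 1 of 4 tested that rose in each zone. Of the mural markers, CSPG4, NOTCH3 and CNN1 were tested, at up to 12568, 600 and 2686 reads a library. RGS5 had no more than 8 reads in any library, and the symbols ACTA2 and MYH11 did not appear in the count table. The tested mural markers summed to 251 to 258 CPM in inner IL-1 cells against 337 to 365 CPM in inner untreated cells. In outer cells they summed to 155 to 183 CPM with IL-1 against 269 to 282 CPM untreated. With IL-1, 3 of 3 were lower in inner cells, and 2 were lower and 1 higher in outer cells. With stretch alone the mural sum was 429 to 467 CPM in inner and 381 to 412 CPM in outer stretched cells, and CSPG4 was the 1 of 3 that rose in each zone. During IL-1 the mural sum was 342 to 349 CPM in inner and 233 to 266 CPM in outer stretched cells, with 2 of 3 higher than in IL-1 cells at rest in inner cells and 1 of 3 in outer cells. The part of these markers in the results was not tested. In bulk RNA, fewer cells of a kind and less RNA per cell cannot be told apart.

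Promoter windows show which members carry the letters that SREBP and its partner factor NF-Y are known to bind. RefSeq on the Sscrofa11.1 assembly gave a window of 300 bases, 250 before and 50 after the annotated start, for 29 of the 30 members, matched by symbol; FADS1 had none. The sterol regulatory element was searched as TCACNCCAC, the NF-Y box as CCAAT and the E-box as CACGTG, on both strands. A sterol element lay in 3 of 29 member windows (10.3%), against 0.913% of 19278 windows of all genes. CCAAT lay in 65.5% of member windows, against 35.4% of all. The E-box lay in 13.8% of member windows, against 7.97% of all. HMGCS1 and SREBF2 are among the 3 members with a sterol element, and all 3 also hold CCAAT, a combination found in 0.348% of all windows. The windows of HMGCS1 and SREBF2 are printed here with those of INSIG1 and SCD, since HMGCS1, INSIG1 and SCD fell with stretch in both zones while SREBF2 did not pass. Each runs 5′ to 3′ on the strand of its gene, with matches in capitals (ATTGG is CCAAT on the other strand).
HMGCS1 (chr16:27957212-27957511, minus strand): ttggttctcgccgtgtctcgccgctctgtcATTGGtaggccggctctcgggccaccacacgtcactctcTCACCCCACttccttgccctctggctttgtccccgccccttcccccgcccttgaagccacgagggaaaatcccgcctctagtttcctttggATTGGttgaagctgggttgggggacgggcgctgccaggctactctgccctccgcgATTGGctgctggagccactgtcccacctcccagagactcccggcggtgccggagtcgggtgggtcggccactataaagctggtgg
SREBF2 (chr5:6784675-6784974, minus strand): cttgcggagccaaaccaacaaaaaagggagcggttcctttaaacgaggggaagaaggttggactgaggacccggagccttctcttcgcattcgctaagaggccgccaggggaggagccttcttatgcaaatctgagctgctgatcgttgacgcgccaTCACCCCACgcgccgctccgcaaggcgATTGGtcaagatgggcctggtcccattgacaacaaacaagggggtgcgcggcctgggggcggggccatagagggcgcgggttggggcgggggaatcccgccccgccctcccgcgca
INSIG1 (chr18:2898709-2899008, minus strand): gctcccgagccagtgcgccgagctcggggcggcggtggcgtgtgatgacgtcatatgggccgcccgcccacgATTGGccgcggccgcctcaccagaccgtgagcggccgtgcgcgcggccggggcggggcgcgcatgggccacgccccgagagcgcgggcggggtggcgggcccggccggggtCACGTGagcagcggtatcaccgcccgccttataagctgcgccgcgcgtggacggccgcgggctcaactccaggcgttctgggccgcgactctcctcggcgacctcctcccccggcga
SCD (chr14:111461310-111461609, plus strand): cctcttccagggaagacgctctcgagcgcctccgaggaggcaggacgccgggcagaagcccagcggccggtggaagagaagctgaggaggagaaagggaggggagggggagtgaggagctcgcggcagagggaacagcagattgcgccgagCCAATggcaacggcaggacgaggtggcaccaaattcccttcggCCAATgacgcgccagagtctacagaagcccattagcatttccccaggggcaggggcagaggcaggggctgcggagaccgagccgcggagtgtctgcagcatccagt
The sterol element of HMGCS1 starts 181 bases upstream of the annotated start and that of SREBF2 93 bases upstream. The INSIG1 window has no match to the sterol element and holds an E-box 67 bases upstream. SCD has a CCAAT box 99 and another 56 bases upstream. ACACA, FASN and LPIN1 also fell with stretch alone in both zones, and their windows hold no sterol element, CCAAT box or E-box. A match is a description of letters only.

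IL-1 alone changed most members, by small amounts. In inner cells 14 of 30 members rose and 11 fell (adjusted p under 0.05 in edgeR's quasi-likelihood test, adjusted over all genes tested), where 32.6% of all genes rose and 32.8% fell. In outer cells 15 rose and 7 fell, against 31.1% and 33.5% of all genes. The change stayed within 1.5-fold for 26 members in inner and 25 in outer cells. The median member changed by 0.08 on the log2 scale in inner and 0.09 in outer cells, and the median of all genes by -0.03 and -0.04. This balance depends on scaling: upper-quartile factors shifted the median of all genes to -0.20 and -0.22, and the split became 6 higher and 15 lower in inner, 7 higher and 15 lower in outer cells. Under that scaling the IL-1 calls of FASN and HSD17B7 in both zones, SQLE in inner cells and FDPS in outer cells did not pass.

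Genes that move cholesterol within and out of cells showed the largest changes. NPC1, the lysosomal membrane protein that releases cholesterol from lysosomes, was at 377, 372 and 337 CPM in inner IL-1 cells, against 83.1, 83.8 and 82.8 CPM in inner untreated cells. NPC1 in outer cells was at 368, 353 and 354 CPM with IL-1, against 93.7, 98.5 and 101 CPM untreated. No library overlapped in either zone, and the log2 fold change was 2.12 ± 0.06 (SE) in inner and 1.87 ± 0.06 in outer cells (adjusted p = 3.86e-24 and 8.29e-23, edgeR). NPC2, the soluble lysosomal partner that hands cholesterol to NPC1, changed by only 0.11 in inner cells (adjusted p = 0.0101, edgeR), a value of -0.07 under upper-quartile scaling, and by 0.04 in outer cells (adjusted p = 0.346).

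ABCA1, the transporter that loads cholesterol onto lipid-poor apolipoproteins, was at 181, 194 and 170 CPM in inner IL-1 cells, against 58.2, 56.3 and 59.2 CPM in inner untreated cells. With IL-1, outer cells had 117, 118 and 113 CPM of ABCA1, against 44.2, 43.6 and 42.7 CPM untreated. Its log2 fold change was 1.65 ± 0.05 in inner and 1.41 ± 0.05 in outer cells (adjusted p = 1.63e-24 and 3.45e-22, edgeR). ABCG1, which exports cholesterol to mature lipoprotein particles, was barely present. Reads of ABCG1 were 3, 1 and 4 in inner IL-1 libraries, against 6, 11 and 9 in inner untreated libraries, a ratio of 0.372 (0.146 to 0.847, exact 95% interval for counting error only). In outer cells ABCG1 had 2, 0 and 0 reads with IL-1, against 4, 1 and 6 untreated, a ratio of 0.209 (0.0226 to 0.96). Both differences passed at adjusted p = 0.0303 and 0.0461 (edgeR), and neither passed with DESeq2 or without any of several single libraries. STARD4, a carrier of cholesterol between membranes, was at 51.2, 51.9 and 62.5 CPM in inner IL-1 cells, against 64, 62.5 and 65.3 CPM untreated (log2 fold change -0.21, adjusted p = 0.026, edgeR). The STARD4 groups overlapped, and the test did not pass without untreated libraries 1 or 3 or without IL-1 libraries 1 or 2.

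The mevalonate pathway split within itself. MVD, which makes isopentenyl diphosphate, was at 93.8, 83.6 and 93.5 CPM in inner IL-1 cells, against 135, 131 and 131 CPM untreated. MVD in outer cells was at 78.1, 78.4 and 68.8 CPM with IL-1, against 116, 118 and 118 CPM untreated. All IL-1 libraries lay below all untreated ones (log2 fold change -0.55 ± 0.05 in inner and -0.64 ± 0.05 in outer cells, adjusted p = 1.25e-11 and 3.32e-13, edgeR). MVK, the kinase of mevalonate, also fell in both zones, by 0.28 and 0.29 on the log2 scale. In contrast ACAT2, the thiolase that joins acetyl-CoA units, rose by 0.53 in inner and 0.48 in outer cells, and FDPS, which makes farnesyl diphosphate, by 0.43 and 0.32. HMGCS1, which makes HMG-CoA, had log2 fold changes of -0.04 and 0.01 (adjusted p = 0.376 and 0.88, edgeR). PMVK, the next kinase, passed in inner cells at -0.21 (adjusted p = 0.0122, edgeR), though not without untreated library 1 or IL-1 library 3, and had -0.05 in outer cells (adjusted p = 0.556).

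Of the 9 steps from squalene onward, 5 were higher in each zone, and 2 were lower in inner and 1 in outer cells. None of the 5 inner rises passed as a rise under upper-quartile scaling, and of the 5 outer ones only SQLE did, at 0.16. SQLE, the oxygenase that commits squalene to sterols, rose by 0.21 in inner and 0.34 in outer cells. HSD17B7, a ketoreductase of sterol demethylation, was at 55, 55.5 and 54.8 CPM in inner IL-1 cells, against 47.4, 45.8 and 47.9 CPM untreated (log2 fold change 0.23). In outer cells HSD17B7 had 78.8, 81.9 and 86.6 CPM with IL-1, against 67.9, 70.3 and 70.5 CPM untreated (log2 fold change 0.25). DHCR7, which makes cholesterol from its last precursor, fell by 0.25 in inner and 0.18 in outer cells. EBP, the sterol isomerase, had 0.11 and 0.09 and NSDHL, a sterol dehydrogenase, 0.18 and 0.14, values that upper-quartile scaling turned to -0.07 and -0.09 for EBP and to 0.00 and -0.04 for NSDHL. The EBP call was lost without inner IL-1 library 2, and in outer cells without any 1 of 5 of the 6 libraries, and the outer NSDHL call without untreated library 4 or IL-1 library 4. FDFT1, squalene synthase, fell by 0.15 in inner cells and had 0.02 in outer cells (adjusted p = 0.638, edgeR). SC5D, the sterol desaturase, had 0.17 (adjusted p = 0.00891, edgeR; 0.00 with upper-quartile scaling) and 0.01, MSMO1, the methyl oxidase, 0.12 (adjusted p = 0.0808) and 0.18 (adjusted p = 0.00947; 0.00 with upper-quartile scaling), and TM7SF2, a sterol reductase, -0.15 and -0.30 (adjusted p = 0.385 and 0.0541). The SC5D call was lost without inner IL-1 library 3, and that of MSMO1 without outer untreated library 6 or outer IL-1 library 6.

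Both SREBP genes changed, in opposite directions. SREBF1 was at 75, 77.2 and 71.9 CPM in inner IL-1 cells, against 109, 105 and 104 CPM untreated, and in outer cells at 91.9, 83.7 and 85.4 CPM with IL-1, against 120, 125 and 129 CPM untreated. Log2 fold changes were -0.51 ± 0.04 in inner cells and -0.52 ± 0.04 in outer cells (adjusted p = 2.33e-12 and 1.06e-12, edgeR), with no overlap of libraries. SREBF2 rose by 0.33 and 0.31. INSIG1, itself a known SREBP target, had 0.17 and 0.15 (adjusted p = 0.000879 and 0.00254, edgeR), values of -0.01 and -0.02 under upper-quartile scaling. SCAP had -0.02 and -0.05, neither past the threshold (adjusted p = 0.793 and 0.349).

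Among genes of fatty acid and glycerolipid synthesis, LPIN1 stood apart in size. LPIN1, a phosphatidate phosphatase on the way to triglyceride, was at 81, 81.7 and 73.5 CPM in inner IL-1 cells, against 32, 34.2 and 32.6 CPM untreated. Outer cells had 109, 105 and 107 CPM of LPIN1 with IL-1, against 41, 43.9 and 42.1 CPM untreated. The log2 fold change was 1.26 ± 0.05 in inner and 1.34 ± 0.05 in outer cells (adjusted p = 5.23e-21 and 3.7e-22, edgeR). ACACA, the carboxylase that makes malonyl-CoA, fell by 0.33 and 0.44 in inner and outer cells, and SCD, the desaturase that makes oleate, by 0.40 and 0.41. FASN, which builds palmitate from malonyl-CoA, rose by 0.20 and 0.28. The FADS1 and FADS2 desaturases, which act on polyunsaturated fatty acids, differed by zone: FADS1 fell by 0.19 in inner cells and had 0.13 in outer cells (adjusted p = 0.0032, edgeR; -0.05 with upper-quartile scaling), while FADS2 had 0.05 in inner cells (adjusted p = 0.173) and rose by 0.43 in outer cells.

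**Figure D1:**
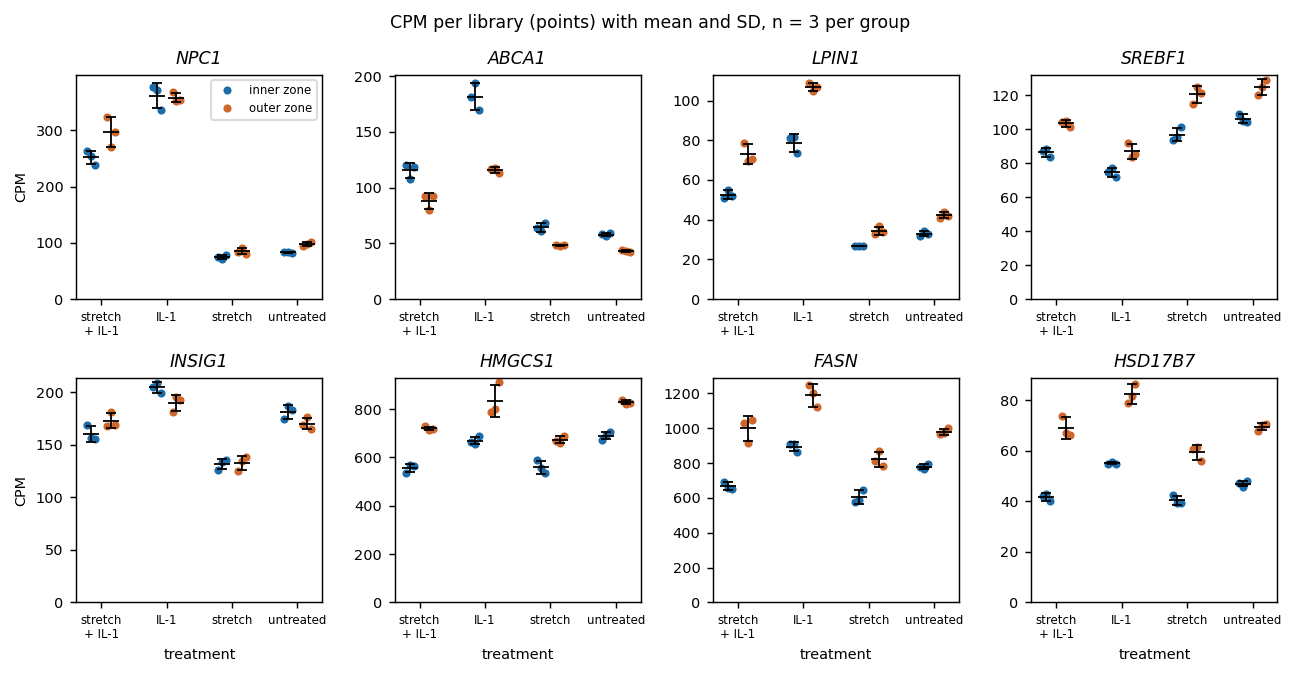
CPM of 8 members (vertical axis, from 0) in each library by treatment (horizontal axis), inner zone in blue and outer zone in orange, with bars for mean and SD of 3 libraries. NPC1, ABCA1 and LPIN1 stand far above untreated cells with IL-1 and lower when stretch is added, while INSIG1, HMGCS1, FASN and HSD17B7 have a lower mean in each stretched group than in its unstretched counterpart.

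IL-1 in cells that were also stretched gave 11 higher and 7 lower members of 30 in inner cells, against 27.2% and 26.3% of all genes, and 17 higher and 5 lower in outer cells, against 28.5% and 30.9%. Upper-quartile scaling gave 7 higher and 15 lower in inner and 11 higher and 10 lower in outer cells. NPC1 rose by 1.76 ± 0.06 and 1.81 ± 0.06 on the log2 scale in inner and outer cells, LPIN1 by 0.97 ± 0.05 and 1.09 ± 0.05, and ABCA1 by 0.85 ± 0.05 and 0.87 ± 0.05. INSIG1 rose by 0.28 and 0.38. MVD fell by 0.39 and 0.52, SCD by 0.30 and 0.25 and SREBF1 by 0.16 and 0.22 in inner and outer cells.

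**Figure D2:**
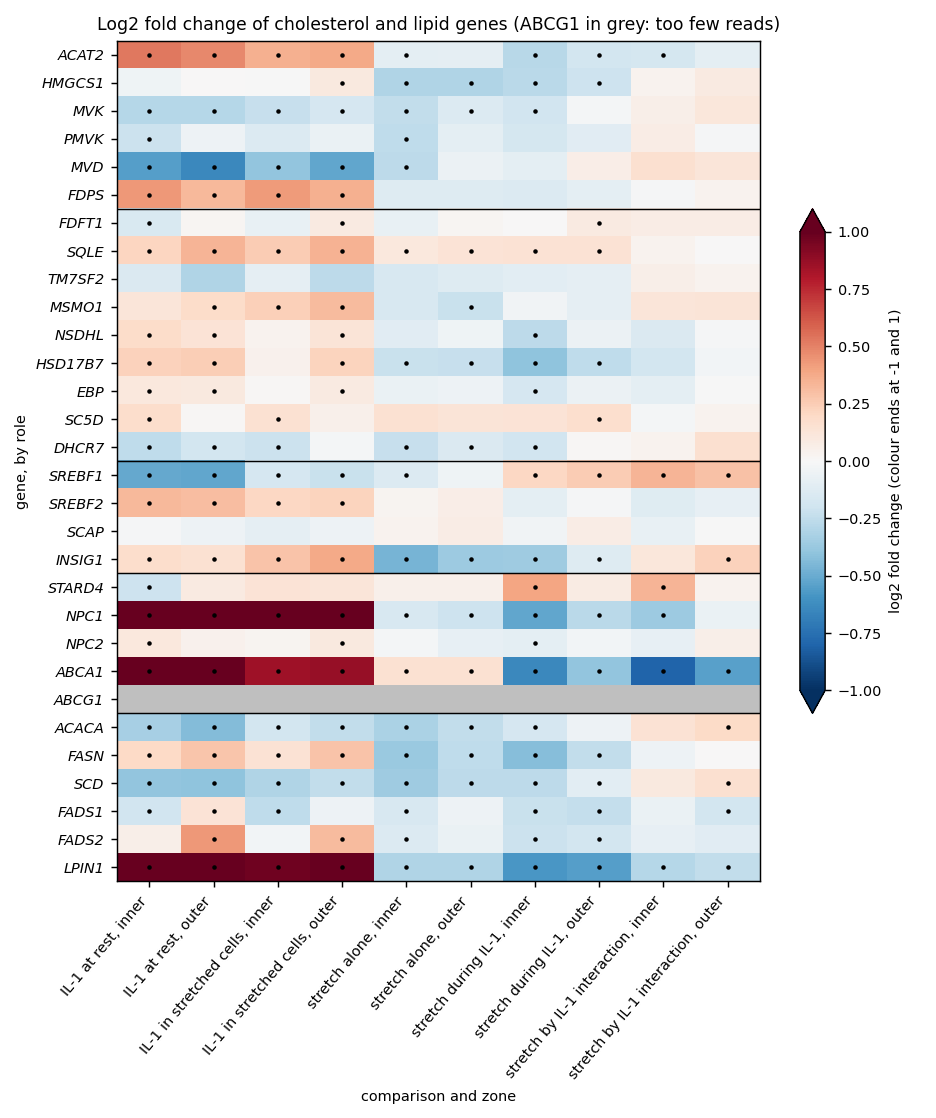
Log2 fold change (colour, saturating at -1 and 1) of each member (vertical axis, grouped by role with lines between roles) in the treatment and interaction comparisons (horizontal axis), with a dot where adjusted p was under 0.05. ABCG1 is left grey and without dots, since it had too few reads. The stretch columns are mostly blue, while the IL-1 columns hold both colours, with NPC1, ABCA1 and LPIN1 deepest red.

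Stretch alone lowered many members slightly. In inner cells 2 of 30 members rose and 16 fell, where 10.6% of all genes rose and 9.29% fell. In outer cells 2 rose and 11 fell, against 11% and 10.3% of all genes. Falls that passed in both zones numbered 10 of 30 members (33.3%), against 5.85% of all genes. Sizes were small, with 29 members within 1.5-fold in each zone and a median of -0.15 in inner cells and -0.09 in outer ones, where the median of all genes was 0.00 and 0.01. Of the 10, 7 also passed in both zones when any 1 library was left out: HMGCS1, HSD17B7, INSIG1, ACACA, FASN, SCD and LPIN1.

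INSIG1, which retains SCAP, had the largest fall among members that passed. It was at 126, 133 and 135 CPM in inner stretched cells, against 174, 187 and 183 CPM untreated, and in outer cells at 125, 134 and 138 CPM with stretch, against 169, 176 and 165 CPM untreated. INSIG1 libraries did not overlap in either zone (log2 fold change -0.47 ± 0.04 and -0.36 ± 0.04, adjusted p = 5.95e-10 and 1.23e-07, edgeR). SREBF1 had -0.14 in inner cells, a call lost without stretched libraries 1 or 2 or untreated library 1, and -0.05 in outer cells (adjusted p = 0.0211 and 0.495, edgeR). SREBF2 and SCAP, at 0.03 and 0.04 in inner and 0.07 and 0.08 in outer cells, did not pass.

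All 6 members for fatty acid and glycerolipid synthesis fell in inner cells, and 4 of them in outer cells. FASN was at 575, 587 and 648 CPM in inner stretched cells, against 780, 766 and 792 CPM untreated (log2 fold change -0.37 ± 0.05, adjusted p = 1.81e-06, edgeR). In outer cells FASN was at 811, 870 and 782 CPM with stretch, against 968, 971 and 1000 CPM untreated (-0.26 ± 0.05, adjusted p = 0.000268). SCD, whose promoter window holds 2 CCAAT boxes where that of FASN holds none, was lower in both zones. It was at 468, 452 and 458 CPM in inner stretched cells, against 582, 590 and 591 CPM untreated. Outer stretched cells had 460, 469 and 463 CPM, against 543, 560 and 567 CPM untreated. None of these FASN or SCD groups overlapped. SCD fell by 0.36 and 0.26 on the log2 scale, ACACA by 0.32 and 0.25 and LPIN1 by 0.30 and 0.30 in inner and outer cells. FADS1 fell by 0.16 and FADS2 by 0.13 in inner cells, and in outer cells they had -0.05 and -0.07 (adjusted p = 0.364 and 0.174, edgeR).

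In the mevalonate pathway 5 of 6 members fell in inner cells and 2 in outer cells. HMGCS1 was at 588, 556 and 534 CPM in inner stretched cells, against 674, 691 and 705 CPM untreated, and at 670, 659 and 688 CPM in outer stretched cells, against 838, 821 and 827 CPM untreated. The HMGCS1 fall was the same in both zones to 2 decimals, -0.30 ± 0.04 (adjusted p = 7.52e-07 and 7.26e-07, edgeR). MVD fell by 0.26 and MVK and PMVK by 0.25 each in inner cells. In outer cells MVK had -0.14 (adjusted p = 0.0488, edgeR), which did not pass without any 1 of 5 of the 6 libraries, and PMVK and MVD had -0.10 and -0.06 (adjusted p = 0.362 and 0.476). The inner PMVK call was lost without untreated library 1. FDPS had -0.13 in both zones (adjusted p = 0.36 and 0.31, edgeR), and ACAT2 had -0.10 in inner cells (adjusted p = 0.0459, overlapping libraries, lost without stretched library 1 or 2 or untreated library 1 or 2) and -0.09 in outer cells (adjusted p = 0.0828).

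Later sterol steps were mixed. HSD17B7 was at 42.4, 39.5 and 39.2 CPM in inner stretched cells, against 47.4, 45.8 and 47.9 CPM untreated, and at 60.6, 61.6 and 56 CPM in outer stretched cells, against 67.9, 70.3 and 70.5 CPM untreated (log2 fold change -0.22 ± 0.05 and -0.23 ± 0.05). DHCR7 fell by 0.23 in inner cells and had -0.14 in outer cells (adjusted p = 0.0293, edgeR), lost without stretched libraries 4 or 6 or untreated libraries 5 or 6. MSMO1 had -0.16 (adjusted p = 0.0723) and -0.22 (adjusted p = 0.00924, lost without outer untreated library 4), and NSDHL, EBP and TM7SF2 had values from -0.16 to -0.04 that did not pass in either zone. SQLE went the other way: it was at 253, 262 and 249 CPM in inner stretched cells, against 235, 237 and 238 CPM untreated, and at 242, 254 and 255 CPM in outer stretched cells, against 230, 227 and 225 CPM untreated. The SQLE values did not overlap and gave log2 fold changes of 0.11 ± 0.04 and 0.14 ± 0.04 (adjusted p = 0.0491 and 0.00844, edgeR), the inner one lost without any 1 of 5 of the 6 libraries. SC5D had 0.15 and 0.13 (adjusted p = 0.0544 and 0.106) and FDFT1 -0.07 and 0.02 (adjusted p = 0.143 and 0.753).

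Of the transport genes, NPC1 was at 74.5, 70.8 and 78.2 CPM in inner stretched cells, against 83.1, 83.8 and 82.8 CPM untreated (log2 fold change -0.16, adjusted p = 0.0435, edgeR), and had -0.20 in outer cells (adjusted p = 0.00762). The inner NPC1 call was lost without any 1 of 5 of the 6 libraries and the outer one without stretched library 6. ABCA1 had 0.15 in both zones (adjusted p = 0.0393 and 0.0489, edgeR), lost without any 1 of 5 of the 6 inner libraries or of the 6 outer libraries. STARD4 and NPC2 had values from -0.08 to 0.05 that did not pass. ABCG1 had 16, 12 and 14 reads in inner stretched libraries, against 6, 11 and 9 untreated (adjusted p = 0.286), and 1, 3 and 3 in outer stretched libraries, against 4, 1 and 6 untreated (adjusted p = 0.497).

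Stretch during IL-1, with stretched IL-1 cells set against IL-1 cells at rest, gave 3 higher and 17 lower members in inner cells, where 16.6% of all genes rose and 18.1% fell. In outer cells 4 members were higher and 11 lower, against 13.1% and 15.1% of all genes. Of the 30 members, 11 fell in both zones (36.7%), against 11.4% of all genes, and 9 of the 11 also passed in both zones without any 1 library. The median change of members was -0.17 in inner and -0.07 in outer cells. Upper-quartile scaling gave 5 higher and 9 lower in outer cells.

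The 3 members most raised by IL-1 at rest were all lower when stretch was added. The same IL-1 libraries enter both comparisons, so the rise and the fall are not independent. ABCA1 was at 120, 108 and 119 CPM in inner stretched IL-1 cells, against 181, 194 and 170 CPM in inner IL-1 cells at rest (log2 fold change -0.65 ± 0.05, adjusted p = 1.92e-12, edgeR). ABCA1 in outer cells was at 92.2, 79.7 and 92.3 CPM with both, against 117, 118 and 113 CPM with IL-1 (-0.40 ± 0.05, adjusted p = 2.11e-07). The libraries did not overlap, and ABCA1 stayed above the untreated level of its zone in every stretched IL-1 library.

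LPIN1 was at 50.7, 55.1 and 52 CPM in inner stretched IL-1 cells, against 81, 81.7 and 73.5 CPM in inner IL-1 cells, and at 78.8, 69.8 and 70.8 CPM in outer stretched IL-1 cells, against 109, 105 and 107 CPM in outer IL-1 cells. Its log2 fold change was -0.58 ± 0.05 and -0.55 ± 0.05 (adjusted p = 3.07e-11 and 1.05e-10, edgeR). NPC1 was at 263, 254 and 239 CPM in inner stretched IL-1 cells, against 377, 372 and 337 CPM in inner IL-1 cells (-0.52 ± 0.05), and at 324, 271 and 298 CPM in outer stretched IL-1 cells, against 368, 353 and 354 CPM in outer IL-1 cells (-0.27 ± 0.05). No LPIN1 or NPC1 library of one group overlapped the other.

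All 6 members for fatty acid and glycerolipid synthesis fell in inner cells and 5 in outer cells. In the mevalonate pathway 3 of 6 fell in inner cells and 2 in outer cells. Of the 9 later sterol steps, 1 rose and 4 fell in inner cells, and 3 rose and 1 fell in outer cells. HSD17B7 fell to 42.2, 42.9 and 40.1 CPM in inner stretched IL-1 cells, against 55, 55.5 and 54.8 CPM in inner IL-1 cells (-0.40 ± 0.05, adjusted p = 6.03e-08, edgeR), and in outer cells by 0.25. FASN fell by 0.42 and 0.25 in inner and outer cells, ACAT2 by 0.28 and 0.19, HMGCS1 by 0.27 and 0.21, FADS1 by 0.23 and 0.24 and FADS2 by 0.21 and 0.18. SCD fell by 0.26 in inner cells and had -0.10 in outer cells (adjusted p = 0.0216, edgeR), lost without stretched IL-1 libraries 4 or 5 or IL-1 library 6. INSIG1 was at 169, 156 and 155 CPM in inner stretched IL-1 cells, against 205, 209 and 199 CPM in inner IL-1 cells (-0.35 ± 0.04). In outer cells INSIG1 overlapped at -0.13 (adjusted p = 0.0213), lost without stretched IL-1 libraries 4 or 6 or IL-1 libraries 5 or 6.

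In inner cells NSDHL fell by 0.26, MVK and DHCR7 by 0.19 each, and EBP and ACACA by 0.17 each. Their outer values ran from -0.06 to 0.01 and none passed, and the difference between zones did not pass for any of these 5 (adjusted p from 0.0935 to 0.356, edgeR). PMVK, MVD, FDPS, MSMO1 and TM7SF2 passed in neither zone, with values from -0.18 to 0.06. NPC2 had -0.10 in inner cells (adjusted p = 0.0411, edgeR), lost without any 1 of 5 of the 6 libraries, and -0.03 in outer cells.

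SREBF1 moved opposite to its direction with IL-1 at rest, in a comparison that shares the IL-1 libraries. It was at 87.3, 88.1 and 83.4 CPM in inner stretched IL-1 cells, against 75, 77.2 and 71.9 CPM in inner IL-1 cells (0.21 ± 0.04, adjusted p = 0.000328, edgeR). SREBF1 in outer cells was at 104, 105 and 101 CPM with both, against 91.9, 83.7 and 85.4 CPM with IL-1 (0.25 ± 0.04, adjusted p = 2.59e-05). SREBF2, which holds a sterol element in its own promoter window, had -0.09 and -0.01 and did not pass (adjusted p = 0.0729 and 0.859), nor did SCAP at -0.04 and 0.07 (adjusted p = 0.614 and 0.276). SQLE rose by 0.14 in inner cells and had 0.14 in outer cells, the outer call lost without IL-1 library 4. STARD4 was at 65.8, 78.4 and 73.6 CPM in inner stretched IL-1 cells, against 51.2, 51.9 and 62.5 CPM in inner IL-1 cells (0.39 ± 0.08, adjusted p = 0.000411, edgeR), and had 0.08 in outer cells (adjusted p = 0.484). FDFT1 at 0.09 and SC5D at 0.17 passed in outer cells (adjusted p = 0.0456 and 0.026), the first lost without any 1 of 5 of the 6 libraries and the second without stretched IL-1 libraries 5 or 6 or IL-1 libraries 4 or 5. ABCG1 had 3, 8 and 8 reads in inner stretched IL-1 libraries, against 3, 1 and 4 with IL-1 (adjusted p = 0.138), and 2, 2 and 2 in outer stretched IL-1 libraries, against 2, 0 and 0 (adjusted p = 0.363).

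**Figure D3:**
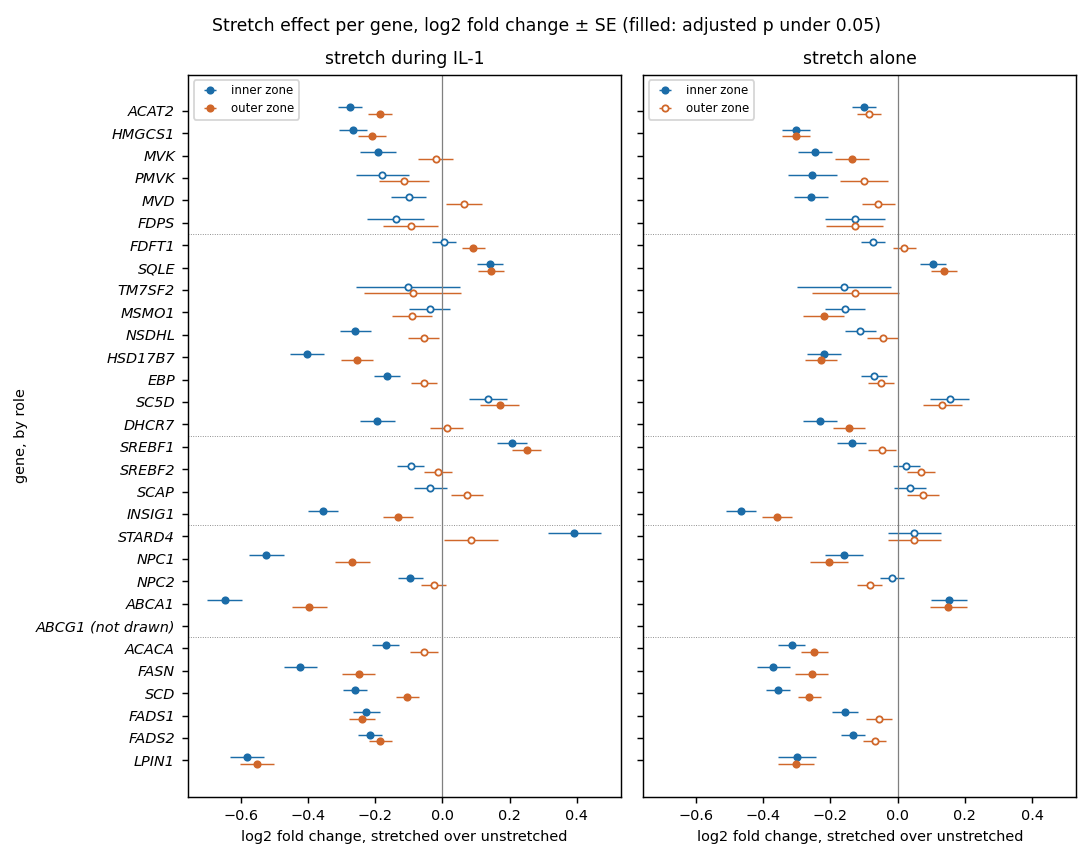
Log2 fold change of stretched over unstretched cells with SE bars (horizontal axis) for each member (vertical axis), in the presence of IL-1 on the left and without it on the right, inner zone in blue and outer zone in orange, filled where adjusted p was under 0.05. ABCG1 is not drawn. Most points lie left of 0 in both panels, with ABCA1 right of 0 without IL-1 and at -0.65 and -0.40 with it.

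Whether stretch acted differently with IL-1 than without it was tested as the stretch effect with IL-1 minus that without. In inner cells 2 members had a positive and 4 a negative difference, against 8.66% and 11% of all genes, and in outer cells 4 a positive and 3 a negative one, against 5.4% and 7.76% of all genes. Upper-quartile scaling gave 4 positive and 3 negative in inner and 5 positive and 1 negative in outer cells. Among differences that passed, ABCA1 had the largest, -0.80 ± 0.07 in inner and -0.55 ± 0.08 in outer cells (adjusted p = 4.53e-10 and 2.69e-06, edgeR). SREBF1 had 0.34 ± 0.06 and 0.30 ± 0.06 (adjusted p = 7.66e-05 and 0.000623). NPC1 at -0.36 and LPIN1 at -0.28 passed in inner cells (adjusted p = 0.000784 and 0.00655), and NPC1 had -0.06 in outer cells (adjusted p = 0.68). These 6 differences passed without any 1 library. The remaining 7 did not: ACAT2 at -0.18 and STARD4 at 0.34 in inner cells, and LPIN1 at -0.25, FADS1 at -0.18, INSIG1 at 0.23, ACACA at 0.19 and SCD at 0.16 in outer cells (adjusted p from 0.0103 to 0.0325). The outer count fell to 3 without replicate 6 of the stretched IL-1 cells. For HMGCS1, HSD17B7 and FASN no difference passed (adjusted p from 0.069 to 0.965), and their values ran from -0.18 to 0.09.

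Inner cells held less of many members than outer cells. In untreated cells 6 of 30 members were higher and 12 lower in the inner zone, against 20.7% and 24.3% of all genes. In stretched cells 6 were higher and 13 lower, against 20.4% and 23.7%. In IL-1 cells 7 were higher and 11 lower, against 24% and 22.9%. In stretched IL-1 cells 5 were higher and 18 lower, against 23.8% and 24.4%. The higher counts in stretched and in stretched IL-1 cells each include ABCG1. That gene met the read minimum only through inner libraries, so its calls do not test zone. The 8 members lower in the inner zone under all 4 treatments were ACAT2, HMGCS1, HSD17B7, EBP, DHCR7, SREBF1, FASN and LPIN1, where 12.7% of all genes were lower in all 4, and ABCA1 and ACACA were higher under all 4, where 11.8% of all genes were. Inner and outer cells were pooled and cultured apart, so zone and pool cannot be told apart.

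HSD17B7 had the lowest values among the members, at -0.56 in untreated, -0.56 in stretched, -0.58 in IL-1 and -0.73 in stretched IL-1 cells (inner over outer, log2 scale, adjusted p from 2.59e-14 to 2.16e-11, edgeR). DHCR7 differed by -0.39, -0.48, -0.46 and -0.67 in the same order of treatments, and FASN by -0.33, -0.44, -0.41 and -0.59. LPIN1 differed by -0.36, -0.36, -0.45 and -0.48 and EBP by -0.28, -0.30, -0.27 and -0.38. ABCA1 went the other way, at 0.41, 0.42, 0.65 and 0.39, and ACACA at 0.35, 0.28, 0.46 and 0.34. Every one of these calls passed without any 1 library, as did those of HMGCS1, from -0.37 to -0.26, and SREBF1, from -0.32 to -0.22. ACAT2 ran from -0.20 to -0.11, and its call in IL-1 cells was lost without inner library 3 or outer library 4.

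Further zone differences passed in some treatments, which does not show that they differ between treatments. FADS2 was lower in inner cells with IL-1 (-0.39) and with both (-0.42), and had -0.01 in untreated and -0.08 in stretched cells (adjusted p = 0.832 and 0.079, edgeR). FADS1 was higher in inner cells when untreated (0.26) and stretched (0.16), with -0.06 and -0.05 in the IL-1 groups. MVK was lower in stretched (-0.22) and stretched IL-1 cells (-0.27), NSDHL and FDFT1 in stretched IL-1 cells (-0.18 and -0.17), and SC5D higher in both IL-1 groups (0.25 and 0.21). ABCG1 had 16, 12 and 14 reads in inner stretched libraries, against 1, 3 and 3 in outer stretched libraries, a ratio of 6.16 (2.74 to 16.3, exact 95% interval for counting error). In stretched IL-1 libraries ABCG1 had 3, 8 and 8 reads in the inner, against 2, 2 and 2 in the outer zone. The ratio was 3.29 (1.26 to 10.1), and this call was lost without any 1 of 5 of the 6 libraries. ABCG1 met the minimum of 10 reads only through inner libraries, so both zone ratios are descriptions and not tests of zone.

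**Figure D4:**
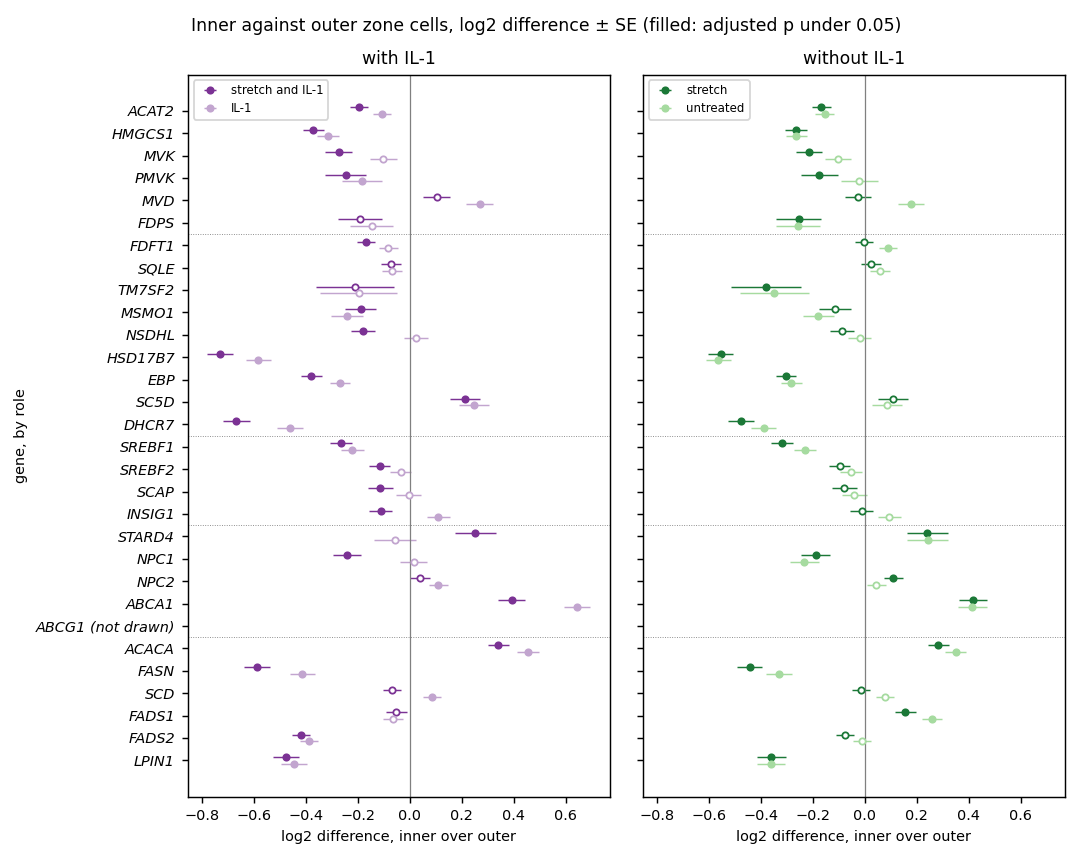
Log2 difference of inner over outer cells with SE bars (horizontal axis) for each member (vertical axis), stretched and unstretched cells with IL-1 on the left and without IL-1 on the right, filled where adjusted p was under 0.05. ABCG1 is not drawn. HSD17B7, DHCR7, FASN and LPIN1 lie left of 0 in all 4 treatments and ABCA1 and ACACA right of 0.

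Differences between zones in the response were few. For IL-1 at rest, 2 members had a larger and 3 a smaller value in the inner zone (inner effect minus outer effect), against 5.41% and 3.82% of all genes. FADS2 differed by -0.38 ± 0.05 and FADS1 by -0.32 ± 0.06 (adjusted p = 1.61e-06 and 9.5e-05, edgeR), and both passed without any 1 library. FADS2 was at 324, 312 and 310 CPM in inner IL-1 cells, against 306, 303 and 301 CPM untreated, and at 403, 407 and 427 CPM in outer IL-1 cells, against 300, 300 and 317 CPM untreated. FADS1 was at 150, 140 and 142 CPM in inner IL-1 cells, against 164, 167 and 160 CPM untreated, and at 151, 151 and 149 CPM in outer IL-1 cells, against 138, 133 and 140 CPM untreated. So IL-1 libraries of FADS1 lay below untreated ones in inner and above them in outer cells. NPC1 at 0.25, ABCA1 at 0.23 and FDFT1 at -0.17 passed with adjusted p = 0.0364, 0.0443 and 0.0233 (edgeR). NPC1 was lost without any 1 of 9 of the 12 libraries, ABCA1 without any 1 of 11 and FDFT1 without any 1 of 3. The count of 5 was 2 without inner untreated library 1, inner IL-1 library 2 or outer IL-1 library 5, and 3 without inner untreated library 2 or 3, outer untreated library 5 or 6 or inner IL-1 library 1.

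For stretch alone no member differed between zones (0 of 30 with edgeR and 0 with DESeq2, 1 at an unadjusted p under 0.05), where 0.3% of all genes had a higher and 0.0659% a lower value in the inner zone. For stretch during IL-1 the count was 0 with edgeR and 1 with DESeq2, with 11 members at an unadjusted p under 0.05, against 1.33% and 0.996% of all genes. The count was 4 without inner IL-1 library 3, 3 without stretched IL-1 library 1 or 5, and 1 without stretched IL-1 library 6 or outer IL-1 library 6. INSIG1 at -0.22, ABCA1 at -0.25 and NPC1 at -0.26 were nearest to the threshold (adjusted p = 0.0508, 0.0545 and 0.0642).

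Other genes of the same pathways were counted from lists of their own. Over all genes, IL-1 at rest raised 32.6% and lowered 32.8% in inner cells and raised 31.1% and lowered 33.5% in outer cells. Of 10 other sterol synthesis genes tested, IL-1 at rest raised 3 and lowered 4 in inner and raised 3 and lowered 3 in outer cells. Of 10 genes that process or degrade SREBP and its partners, it raised 3 and lowered 3 in inner and raised 1 and lowered 2 in outer cells. Of 18 genes for sterol uptake, storage and oxysterols, it raised 8 and lowered 3 in each zone, and of 20 further genes of fatty acid and triglyceride synthesis it raised 6 and lowered 10 in inner and raised 4 and lowered 11 in outer cells. Stretch alone raised 1 and lowered 4 of the 10 other sterol synthesis genes in inner cells, where 10.6% of all genes rose and 9.29% fell. In outer cells it raised 1 and lowered 3, where 11% of all genes rose and 10.3% fell. Of the 10 genes that process or degrade SREBP, it raised 0 and lowered 0 in inner and raised 0 and lowered 1 in outer cells. Of the 18 uptake, storage and oxysterol genes, it raised 1 and lowered 3 in each zone. Of the 20 further genes of fatty acid and triglyceride synthesis, it raised 1 and lowered 4 in inner and raised 2 and lowered 5 in outer cells. Stretch during IL-1 raised 1 and lowered 5 of the 18 uptake, storage and oxysterol genes in inner cells, where 16.6% of all genes rose and 18.1% fell. In outer cells it raised 1 and lowered 7, where 13.1% of all genes rose and 15.1% fell. Of the 10 other sterol synthesis genes, it raised 1 and lowered 2 in each zone. Of the 10 genes that process or degrade SREBP, it raised 1 and lowered 0 in inner and raised 1 and lowered 1 in outer cells. Of the 20 further fatty acid and triglyceride genes, it raised 3 and lowered 5 in inner and raised 3 and lowered 4 in outer cells.

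Enzymes that activate fatty acids to acyl-CoA were among the genes there that changed past 2-fold. ACSL1 in inner cells was at 401, 376 and 355 CPM with stretch and IL-1, 893, 1100 and 764 CPM with IL-1 and 60.8, 59.1 and 59.9 CPM untreated (log2 fold change 3.94 with IL-1 at rest). In outer cells ACSL1 was at 661, 610 and 540 CPM with both, 1090, 1090 and 1200 CPM with IL-1 and 54.5, 54.5 and 54.9 CPM untreated. The fall of ACSL1 with stretch during IL-1 was -1.28 in inner and -0.90 in outer cells (adjusted p = 6.9e-09 and 9.31e-07, edgeR). ACSL4, which prefers arachidonate, rose with IL-1 at rest by 2.27 and 2.14 in inner and outer cells and ACSL5 by 1.41 and 1.11, and both fell with stretch during IL-1, ACSL4 by 0.28 and 0.36 and ACSL5 by 0.52 and 0.34.

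CH25H, which makes the oxysterol 25-hydroxycholesterol, was at 2.6, 2.56 and 2.64 CPM in inner IL-1 cells, against 0.26, 0.307 and 0.208 CPM untreated. CH25H in outer cells was at 3.07, 3.12 and 2.68 CPM with IL-1, against 0.167, 0.163 and 0.27 CPM untreated (log2 fold change 3.32 and 3.84, adjusted p = 9.8e-15 and 4.38e-16, edgeR). PPARG, a lipid-sensing nuclear receptor, was under 1 CPM in every library, with at most 28 reads. It passed for stretch during IL-1 in both zones (1.84 and 1.20, adjusted p = 0.0103 and 0.0443, edgeR). At so few reads these calls are limited by depth. Genes of these lists were not checked by leaving out libraries or by the other alternatives.

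The 3 listed genes without a symbol in the count table were found through the reference annotation's gene names and stay outside the counts above. IDI1, the isomerase of the mevalonate pathway, had -0.15 and -0.13 with stretch in inner cells, without and with IL-1 (adjusted p = 0.00453 and 0.00715, edgeR), and was lower in inner cells than in outer ones under all 4 treatments, by values from -0.30 to -0.19. MYLIP, the ubiquitin ligase that acts on lipoprotein receptors, had 0.38 and 0.33 with IL-1 at rest in inner and outer cells (adjusted p = 0.016 and 0.0164). MYLIP was also lower in inner than in outer cells under all 4 treatments, by values from -0.89 to -0.64 (adjusted p from 2.18e-06 to 0.00012, edgeR). INSIG2, the relative of INSIG1, passed for none of the treatment comparisons, with values from -0.23 to 0.10. Between zones INSIG2 passed only in untreated cells, at -0.27 (inner over outer, adjusted p = 0.0295, edgeR).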

How the data were processed

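The deposited table held raw read counts per gene for 24 libraries. Per the labels and the study's methods, the authors used stranded mRNA libraries, trimmed reads with Trim Galore and cutadapt, aligned them with STAR to Sscrofa11.1 and counted uniquely mapped reads per gene with HTSeq. Genes with near-identical copies lose reads under such counting. The authors' normalized table was not used.

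Genes that reached 10 reads in 1 or more libraries were tested with edgeR 4.0.16 in R 4.3.3 (TMM scaling, robust quasi-likelihood fit of 8 group means over all 24 libraries, 16 residual degrees of freedom, common biological coefficient of variation 0.0472). In all, 17 comparisons were made, and p-values were adjusted by Benjamini-Hochberg over all genes tested in each comparison. CPM used TMM library sizes. SE was the absolute log2 fold change divided by the square root of F. The fit was tested on simulated data. Low count ratios used exact Clopper-Pearson intervals.

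The members and lists were chosen with earlier results of these data known. All 34 listed genes were named. Values per library were given for members past a 2-fold change in a treatment comparison or an interaction, for the largest change in each role list, and for further members chosen after their values were seen. Genes of the pathway lists were named if past 2-fold with IL-1 at rest or with stretch during IL-1, except 1 that is not reported here. Alternatives were upper-quartile and RLE scaling, DESeq2 1.42.0, other count filters, a replicate block, a fit of each zone alone, a 2-fold threshold and leaving out each library.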

Additional observations from a re-analysis of the deposited data

Results flagged for a closer look

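The response to IL-1 at rest differed between the zones for 5 members (inner effect minus outer effect on the log2 scale, tested in edgeR with adjustment over all genes). FADS2 differed by -0.38 (SE 0.05, adjusted p = 1.61e-06), with 0.05 in inner and 0.43 in outer cells. FADS1 differed by -0.32 (SE 0.06, adjusted p = 9.5e-05), with -0.19 in inner and 0.13 in outer cells. FDFT1 differed by -0.17 (SE 0.05, adjusted p = 0.0233), with -0.15 in inner and 0.02 in outer cells. NPC1 differed by 0.25 (SE 0.08, adjusted p = 0.0364), with 2.12 in inner and 1.87 in outer cells. ABCA1 differed by 0.23 (SE 0.07, adjusted p = 0.0443), with 1.65 in inner and 1.41 in outer cells. Of the 5, only FADS2 and FADS1 passed without any 1 library. The NPC1 call was lost without any 1 of 9 of the 12 libraries, that of ABCA1 without any 1 of 11 and that of FDFT1 without any 1 of 3.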

How the results depend on the processing

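Of 249 calls on single members, 169 kept their direction and their side of the adjusted p threshold under every alternative fit. The 2-fold threshold is not part of that tally. Upper-quartile scaling turned 13 values round: with IL-1 at rest, EBP to -0.07 in inner and -0.09 in outer cells, INSIG1 to -0.01 and -0.02, NPC2 to -0.07 and SC5D to 0.00 in inner cells, and FADS1 to -0.05 and NSDHL to -0.04 in outer cells; with IL-1 in stretched outer cells, EBP to -0.04, FDFT1 to -0.04, HMGCS1 to -0.03, NPC2 to -0.03 and NSDHL to -0.01. That scaling shifts all genes, as the report gives. Requiring a fold change over 2 left 4 members in each zone for IL-1 at rest, ABCG1 among them. For IL-1 in stretched cells it left 1 in inner and 2 in outer cells. Between zones it left 1 in stretched cells and 1 in stretched IL-1 cells. Both of these zone calls were ABCG1, which does not test zone. Every other comparison was left with 0.

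For the zone difference in the IL-1 response, the count of 5 was 3 with RLE scaling, 3 with genes of at least 1 read, 3 with the replicate block, and 2 to 6 leaving out 1 library. For that of stretch during IL-1, the count of 0 was 1 with DESeq2, 2 with genes of at least 1 read, 1 with filterByExpr, 1 with the replicate block, and 0 to 4 leaving out 1 library. The outer interaction count of 7 ran from 3 to 7 leaving out 1 library.

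Same-numbered libraries showed little shared deviation (correlations from -0.082 to 0.07 in inner and -0.081 to 0.067 in outer cells). Differently numbered ones ran from -0.067 to 0.075 in inner and -0.118 to 0.088 in outer cells. With 3 libraries a group, such correlations cannot settle whether the numbers pair the samples, and the labels do not say what they mark. With the replicate block the count for stretch alone was 14 against 18 in inner and 11 against 13 in outer cells. The cause of these changes was not tested. ABCG1, with at most 16 reads a library, is limited by depth, and it met the count minimum only through inner libraries.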
